A study of Mus musculus with 12 samples.

Results

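The expression of 10 genes of the Notch pathway was examined in mouse subcortical white matter, the fibre layer under the cortex in which oligodendrocytes wrap axons with myelin. The genes were the receptor genes Notch1, Notch2 and Notch3, the ligand genes Jag1, Dll1 and Dll3, the nuclear partner gene Rbpj and the target genes Hes1, Hes5 and Hey1. They were chosen by symbol as core parts of the pathway, and each was read from the locus of the expression table that carried its symbol, 10 of 33864 loci. Where a symbol stood at several loci, as Notch3 did at 3, the locus with the highest mean over the libraries was taken. RNA had been sequenced from 12 mice, 1 library per mouse, in 4 groups of 3.

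The first mutants were Sox10-tTA;TRE-dnEGFR mice, in which a tetracycline transactivator under the control of Sox10, a gene of the oligodendrocyte lineage, drives a dnEGFR transgene. Littermates with TRE-dnEGFR alone served as controls. Doxycycline was given to both groups between postnatal days 21 and 35, and tissue was taken at day 35. The second mutants were Sox10-tTA;TRE-ErbB2V664E mice, which carry a variant of the receptor ErbB2 behind the same kind of promoter. Littermates with TRE-ErbB2V664E alone served as controls, with doxycycline between days 21 and 30 and tissue taken at day 30. All 12 mice thus received doxycycline, and the labels leave unsaid whether it activated or silenced the transgenes. No group carried Sox10-tTA alone, so an effect of the transactivator cannot be told apart from that of the transgene.

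In Notch signalling a ligand on one cell binds a receptor on its neighbour, proteases free the intracellular part of the receptor, and this part joins the DNA-binding protein RBPJ in the nucleus and turns on genes of the Hes and Hey families, which encode transcriptional repressors. In the oligodendrocyte lineage, Notch1 on precursor cells and Jag1 on axons are known for holding back differentiation, with Hes5 among the repressors involved. In blood vessels of the brain, Notch3 is the receptor of mural cells.

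RBPJ recognises DNA with the core TGGGAA, and the matches to this core upstream of members are shown because they are the pathway's own reading site. Promoters from RefSeq (build GRCm38.p6) were matched for 8 of the 10 genes, without Hes1 and Hey1. In the 250 bases upstream of the gene start, searched on both strands, TGGGAA was found in 2 of the 8, Hes5 and Rbpj. It was also found in 21.6% of all 32851 promoters of that length, so a match describes the letters and does not show binding. The capitals mark TGGGAA or its reverse complement TTCCCA, and each stretch is the plus strand, on which both genes lie.
Hes5, 226 bases upstream, chr4:154960685-154960714: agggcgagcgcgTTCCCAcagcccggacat
Hes5, 82 bases upstream, chr4:154960829-154960858: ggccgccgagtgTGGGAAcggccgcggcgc
Rbpj, 149 bases upstream, chr5:53590185-53590214: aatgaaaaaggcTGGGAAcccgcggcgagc
Rbpj, 65 bases upstream, chr5:53590269-53590298: gacgctcgcattTTCCCAggacccctcctc
RefSeq gives Rbpj a further start, from which the last stretch lies 205 bases upstream. Both matches of Hes5 extend to the longer form GTGGGAA, which was present in 5.42% of all promoters.

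Expression was given as FPKM, fragments per kilobase of transcript corrected for library depth, so that levels of different genes can be compared per length. Estimated depth lay between 16596881 and 24739618 fragments per library, at which 1 FPKM in a 2 kb transcript stands for 33.2 to 49.5 fragments. Genes were tested with limma on log2(FPKM + 1) over the 13803 loci that reached 1 FPKM in at least 3 libraries, and adjusted p-values are Benjamini-Hochberg values over these loci with a threshold of 0.05. Markers of mature oligodendrocytes (Mbp, Mog, Mag, Mobp and Cnp) summed to 562 to 1282 FPKM per library, and those of neurons to 254 to 584 FPKM, so the dissected pieces held neuronal RNA beside that of white matter. In such bulk tissue, fewer cells of a type and less RNA per cell cannot be told apart.

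No member changed past the threshold in the mutants of either line. Of the 9 members tested, 0 were called in the dnEGFR mutants, where 0.0942% of all loci were called, and 0 in the ErbB2V664E mutants, where 0.275% were called. The difference of the effects, ErbB2V664E minus dnEGFR, gave 0 calls among the members and 0.116% among all loci. At an unadjusted p under 0.05 the members again gave 0 in each of these 3 comparisons, against 5.69% of loci in the dnEGFR line, 12.1% in the ErbB2V664E line and 9.01% for the difference. The median log2 change of the 9 members was 0.05 in the dnEGFR mutants (range -0.19 to 0.43, median of all loci 0.01) and 0.00 in the ErbB2V664E mutants (range -0.20 to 0.22, median of all loci 0.00). Dll3 stayed below 1 FPKM in every library and had no test at this filter.

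**Figure D1:**
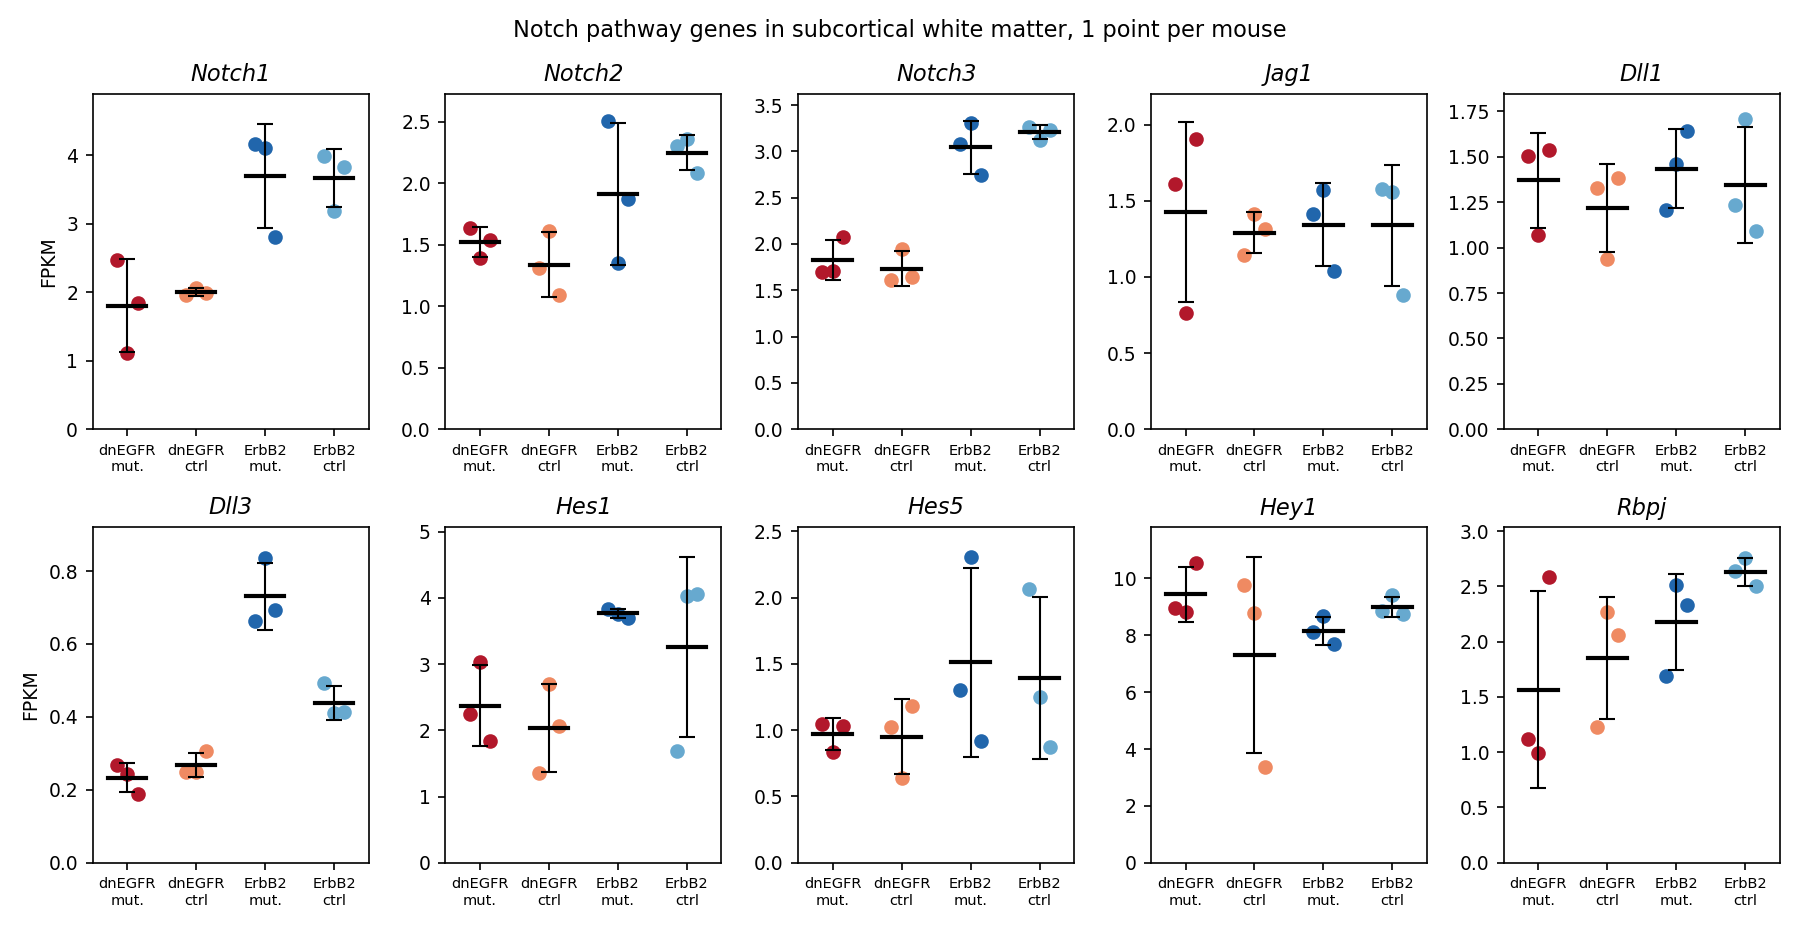
FPKM (y axis) of the 10 genes in each of the 12 mice, by group along the x axis, where points are mice, horizontal bars are means and whiskers show 1 SD (n = 3 mice). Mutants and controls of a line overlap for all genes except Hey1 and Dll3 in the ErbB2V664E line, while Notch1, Notch3 and Dll3 lie lower in all 6 dnEGFR-line mice than in all 6 ErbB2V664E-line mice.

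Of the receptors, Notch1 was at 2.46, 1.11 and 1.84 FPKM in the dnEGFR mutants, against 1.96, 2.07 and 1.99 FPKM in the dnEGFR controls. It was at 4.16, 4.11 and 2.81 FPKM in the ErbB2V664E mutants, against 3.98, 3.18 and 3.84 FPKM in the ErbB2V664E controls. Mutants and controls overlapped in both lines, and dnEGFR mutant 2 was the lowest of the 12 libraries. Its log2 change was -0.13 in the dnEGFR mutants (95% confidence interval -0.52 to 0.27, adjusted p = 1) and 0.00 in the ErbB2V664E mutants (-0.40 to 0.39, adjusted p = 1). The 2 effects differed by 0.13, with an interval of -0.43 to 0.69.

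Notch2, a receptor with a structure close to that of Notch1, was read from a locus that the assembly joined with the gene Gm42820, so a share of its value may belong to that gene. It was at 1.64, 1.39 and 1.54 FPKM in the dnEGFR mutants, against 1.31, 1.61 and 1.09 FPKM in the dnEGFR controls. ErbB2V664E mutants had 2.50, 1.35 and 1.87 FPKM, against 2.30, 2.36 and 2.08 FPKM in the ErbB2V664E controls. The groups overlapped in both lines, and ErbB2V664E mutant 2 stood among the dnEGFR-line mice. Notch2 had a log2 change of 0.12 in the dnEGFR mutants (-0.20 to 0.43, adjusted p = 0.998) and -0.18 in the ErbB2V664E mutants (-0.49 to 0.14, adjusted p = 0.667).

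Notch3 was at 1.70, 1.71 and 2.08 FPKM in the dnEGFR mutants, against 1.61, 1.95 and 1.65 FPKM in the dnEGFR controls. In the ErbB2V664E mutants Notch3 reached 3.08, 3.31 and 2.74 FPKM, against 3.26, 3.12 and 3.23 FPKM in the ErbB2V664E controls. The groups overlapped in both lines, and the standard error of 0.09 was the smallest of the 3 receptors. Notch3 had a log2 change of 0.05 in the dnEGFR mutants (-0.15 to 0.25, adjusted p = 1) and -0.06 in the ErbB2V664E mutants (-0.26 to 0.14, adjusted p = 0.845). Summed over its 3 loci, Notch3 changed by 0.17 in the ErbB2V664E mutants, in the other direction, and was not called there either. That sum includes a locus listed at 0 in ErbB2V664E controls 1 and 3 and at 1.51 to 2.48 FPKM in the ErbB2V664E mutants. The locus used here averaged 3.04 FPKM in those mutants against 3.21 FPKM in their controls, and the remaining one 1.26 against 1.40 FPKM.

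Among the ligands, Jag1 was at 1.61, 0.765 and 1.90 FPKM in the dnEGFR mutants, against 1.15, 1.41 and 1.31 FPKM in the dnEGFR controls. It was at 1.42, 1.57 and 1.04 FPKM in the ErbB2V664E mutants, against 1.58, 1.56 and 0.880 FPKM in the ErbB2V664E controls. The 4 groups overlapped, and dnEGFR mutant 2 was again the lowest of the 12 libraries. The log2 change was 0.05 in the dnEGFR mutants (-0.38 to 0.49, adjusted p = 1) and 0.01 in the ErbB2V664E mutants (-0.42 to 0.44, adjusted p = 0.996).

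Dll1, a ligand that activates Notch receptors on neighbouring cells, was at 1.50, 1.07 and 1.54 FPKM in the dnEGFR mutants, against 1.33, 0.939 and 1.38 FPKM in the dnEGFR controls. The ErbB2V664E mutants had 1.21, 1.46 and 1.64 FPKM, against 1.23, 1.71 and 1.09 FPKM in the ErbB2V664E controls. The mutant was higher than its littermate in 3 of 3 dnEGFR litters, although the groups overlapped, and in 1 of 3 ErbB2V664E litters. Dll1 had a log2 change of 0.10 in the dnEGFR mutants (-0.21 to 0.40, adjusted p = 1) and 0.06 in the ErbB2V664E mutants (-0.25 to 0.37, adjusted p = 0.911).

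Dll3, a divergent ligand that in the mouse does not activate receptors on other cells, was the lowest member, at an estimated 10.5 to 45.8 fragments per library. It was at 0.664, 0.836 and 0.693 FPKM in the ErbB2V664E mutants, against 0.493, 0.411 and 0.412 FPKM in the ErbB2V664E controls. The dnEGFR mutants had 0.267, 0.243 and 0.189 FPKM, against 0.248, 0.249 and 0.307 FPKM in the dnEGFR controls. Every ErbB2V664E mutant lay above every ErbB2V664E control and above its own littermate, while the dnEGFR groups overlapped. Among 5796 loci below the filter that were above 0 in all libraries, values did not overlap at 17.7% in the ErbB2V664E line and at 10.2% in the dnEGFR line, so such a separation was common. An exact two-sided permutation test of the ErbB2V664E groups gave p = 0.1, the smallest that 3 against 3 mice allow. In the limma fit without a filter on low values, the log2 change was 0.27 in the ErbB2V664E mutants (0.11 to 0.42, unadjusted p = 0.00389, adjusted p = 0.246), which did not pass, where 0.136% of loci did. The difference from the dnEGFR effect was 0.31 in that fit (0.08 to 0.53, adjusted p = 0.588), where 0.0502% of loci passed.

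Rbpj, the nuclear partner of all Notch receptors, was at 1.12, 0.990 and 2.59 FPKM in the dnEGFR mutants, against 1.23, 2.27 and 2.06 FPKM in the dnEGFR controls. The ErbB2V664E mutants had 1.69, 2.51 and 2.33 FPKM, against 2.64, 2.76 and 2.51 FPKM in the ErbB2V664E controls. The mutant was lower than its littermate in 3 of 3 ErbB2V664E litters, but the groups touched, with ErbB2V664E mutant 2 level with control 3. Rbpj had a log2 change of -0.19 in the dnEGFR mutants (-0.69 to 0.31, adjusted p = 0.998) and -0.20 in the ErbB2V664E mutants (-0.70 to 0.30, adjusted p = 0.771).

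Of the target genes, Hes1 was at 2.25, 3.03 and 1.83 FPKM in the dnEGFR mutants, against 1.36, 2.69 and 2.06 FPKM in the dnEGFR controls. It was at 3.84, 3.76 and 3.70 FPKM in the ErbB2V664E mutants, against 1.69, 4.03 and 4.06 FPKM in the ErbB2V664E controls. Control 1 of the ErbB2V664E line stood far below the other 5 libraries of that line. The log2 change was 0.16 in the dnEGFR mutants (-0.40 to 0.72, adjusted p = 1) and 0.22 in the ErbB2V664E mutants (-0.34 to 0.78, adjusted p = 0.779), and without ErbB2V664E control 1 it was -0.08 in that line.

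Hes5, the repressor whose upstream region held both GTGGGAA matches shown above, was at 1.04, 0.834 and 1.03 FPKM in the dnEGFR mutants, against 1.03, 0.637 and 1.18 FPKM in the dnEGFR controls. The ErbB2V664E mutants had 1.31, 2.31 and 0.921 FPKM, against 2.06, 1.25 and 0.871 FPKM in the ErbB2V664E controls. Its short transcript gave 16.2 to 61.5 estimated fragments per library, and the ErbB2V664E groups ranged over more than the distance between any group means. The log2 change was 0.02 in the dnEGFR mutants (-0.48 to 0.53, adjusted p = 1) and 0.06 in the ErbB2V664E mutants (-0.44 to 0.56, adjusted p = 0.953).

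Hey1 was the most abundant member per length, with a mean above that of 77.9% of tested loci, while the means of the other 8 tested members stood above 17.6% to 43% of loci. It was at 8.96, 8.81 and 10.5 FPKM in the dnEGFR mutants, against 9.78, 8.79 and 3.36 FPKM in the dnEGFR controls. In the ErbB2V664E mutants Hey1 stood at 8.13, 8.67 and 7.69 FPKM, against 8.87, 9.41 and 8.73 FPKM in the ErbB2V664E controls. Every ErbB2V664E mutant lay below every control by a small margin, a separation seen at 18.2% of tested loci in that line. The log2 change was 0.43 in the dnEGFR mutants (-0.18 to 1.04, adjusted p = 0.964) and -0.13 in the ErbB2V664E mutants (-0.74 to 0.48, adjusted p = 0.903). The value in the dnEGFR line rested on control 3, without which it was 0.02. No tested member was without overlap in the dnEGFR line, where 10.1% of loci were.

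Of all cell type markers tested, 3 were called in the ErbB2V664E mutants, where 0.275% of all loci were called and no member was. Of the 5 mature oligodendrocyte markers tested, 1 was called lower, with a median log2 change of -0.76, and they summed to 562 to 786 FPKM in the mutants and 831 to 1282 FPKM in the controls. Of 4 markers of newly formed oligodendrocytes 1 was called lower (median -0.71), as was 1 of 7 of neuroblasts and progenitors (median -0.25). Of the other lists 0 markers were called, with medians of -0.55 for microglia, -0.20 for precursors, -0.21 for astrocytes, 0.08 for endothelium, -0.04 for mural cells, 0.21 for neurons, -0.17 for striatal neurons, -0.46 for ependyma, -1.20 for choroid plexus and -1.57 for red blood cells. In the dnEGFR mutants, where 0.0942% of all loci were called, 0 markers were called in any list. The list medians were 0.57 for striatal neurons, 0.46 for red blood cells and -0.17 to 0.07 for the other 11 lists. The part of these differences in the members' values was not tested.

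**Figure D2:**
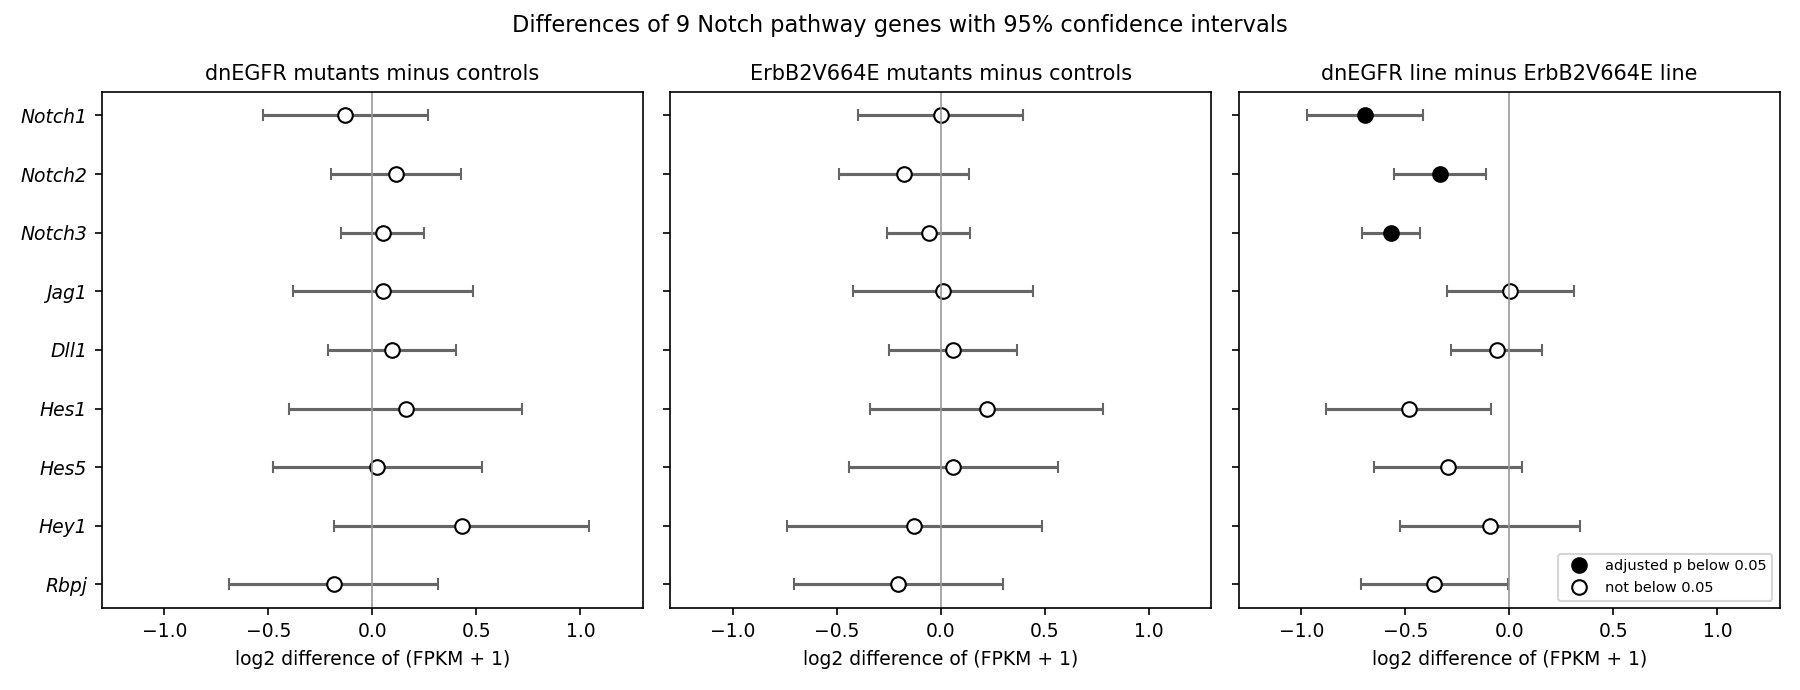
Log2 differences of FPKM + 1 (x axis) of the 9 tested genes, with 95% confidence intervals from limma, for dnEGFR mutants minus controls, ErbB2V664E mutants minus controls, and the 6 dnEGFR-line mice minus the 6 ErbB2V664E-line mice. All intervals of the first 2 panels include 0, and filled points mark adjusted p below 0.05, which are Notch1, Notch2 and Notch3 in the third.

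The 3 receptor genes were lower in the dnEGFR line than in the ErbB2V664E line, with the mutants and controls of a line pooled. As a count, 3 of 9 tested members is no larger a share than that of all loci called, so it is not a result particular to the pathway. The comparison of the dnEGFR line with the ErbB2V664E line, mutants and controls weighted equally, was added after the values had been seen. Line, age, the length of doxycycline treatment and whatever else separated the 2 sets of mice cannot be told apart in it. It called 36.4% of all loci, 17.3% higher and 19.1% lower in the dnEGFR line, and 3 of the 9 members, all lower. At an unadjusted p under 0.05 it gave 5 of the 9 members and 45.9% of loci. The members' median difference was -0.33, against -0.02 over all loci.

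Notch1 averaged 1.91 ± 0.444 FPKM in the dnEGFR line and 3.68 ± 0.554 FPKM in the ErbB2V664E line (SD, n = 6 each), a log2 difference of -0.69 (-0.97 to -0.42, limma adjusted p = 0.00196). Notch3 averaged 1.78 ± 0.188 FPKM in the dnEGFR line and 3.13 ± 0.207 FPKM in the ErbB2V664E line, a log2 difference of -0.57 (-0.71 to -0.43, limma adjusted p = 0.000117). For both receptors the highest dnEGFR-line mouse lay below the lowest ErbB2V664E-line mouse, which was so, in either direction, at 19.9% of loci. In controls alone, where 2761 of the 13803 loci were called, the 3 receptors were called as well.

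The Notch3 difference depended on the locus. Its other 2 loci held only transcripts of the assembly with no reference identifier, and one of them was listed at 0 in controls 1 and 3 of the ErbB2V664E line and at 1.51 to 2.80 FPKM in the other 10 libraries. The other averaged 2.00 ± 0.241 FPKM in the dnEGFR line and 1.33 ± 0.508 FPKM in the ErbB2V664E line, the reverse order. Summed over all 3 loci, the log2 difference was 0.00 and no longer called.

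Notch2 averaged 1.43 ± 0.210 FPKM in the dnEGFR line and 2.08 ± 0.419 FPKM in the ErbB2V664E line (SD, n = 6 each), a log2 difference of -0.33 (-0.55 to -0.11, limma adjusted p = 0.0252). That call was lost without dnEGFR mutant 2 (adjusted p = 0.053), without dnEGFR control 3 (0.0583), without ErbB2V664E control 2 (0.0529) and without the filter on low values (0.0562), with log2 differences of -0.31, -0.29, -0.32 and -0.33 in that order.

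Downstream of the receptors, Hes1 differed by -0.48 between the lines (-0.88 to -0.09, limma adjusted p = 0.0562) and Rbpj by -0.36 (-0.71 to -0.01, adjusted p = 0.104), neither past the threshold. Hes1 was called without ErbB2V664E control 1 (-0.64, adjusted p = 0.00548), without dnEGFR mutant 2 (0.0477) or without dnEGFR control 2 (0.0432), and Rbpj without dnEGFR mutant 3 (-0.49, adjusted p = 0.0115). Hes5 differed by -0.30 (-0.65 to 0.06), Hey1 by -0.09 (-0.53 to 0.34), Dll1 by -0.06 (-0.28 to 0.16) and Jag1 by 0.00 (-0.30 to 0.31).

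Dll3, below the filter, averaged 0.250 ± 0.0382 FPKM in the dnEGFR line and 0.585 ± 0.173 FPKM in the ErbB2V664E line (SD, n = 6 each). All 6 dnEGFR-line values lay below all 6 ErbB2V664E-line values, as happened in either direction at 4.31% of the loci below the filter. In the limma fit without a filter the log2 difference was -0.34 (-0.45 to -0.22, adjusted p = 0.00172), and 14.3% of all loci were called there. Within the ErbB2V664E line, Dll3 averaged 0.731 ± 0.0924 FPKM in mutants and 0.439 ± 0.0471 FPKM in controls (SD, n = 3 each).

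The difference between the lines varied with the GC content of the transcripts. Transcript length and GC content from GENCODE M21 were matched for 12227 of the 13803 tested loci, 88.6%. These loci were divided into 5 bins of equal number by GC content. In the bin with the highest GC content, 55.6% to 74.7%, the median log2 difference between the lines was -0.29, and 45.3% of loci were called lower and 4.17% higher in the dnEGFR line. In the bin with the lowest, 29.3% to 44%, the median was 0.21, and 5.56% were called lower and 32.7% higher. The highest bin held Notch1 at 57.1% GC, Notch3 at 59.6% and Hes5 at 62.1%, while Notch2 at 53.6% was in the next, where the median was -0.12 and 24.9% were called lower. Rbpj, at 43.7% GC, was in the lowest.

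Length alone ordered the loci less, with medians of 0.08 in the shortest of 5 bins and -0.05 in the longest, which held all 3 receptors, Jag1 and Rbpj. Among 323 loci that were both in the highest GC bin and at least 5 kb long, limits set after the values had been seen, the median was -0.46 and 72.4% were called lower in the dnEGFR line. Notch1, at 9.49 kb, and Notch3, at 8.02 kb, were among them. How much of the receptor difference goes with this pattern of all loci was not tested.

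**Figure D3:**
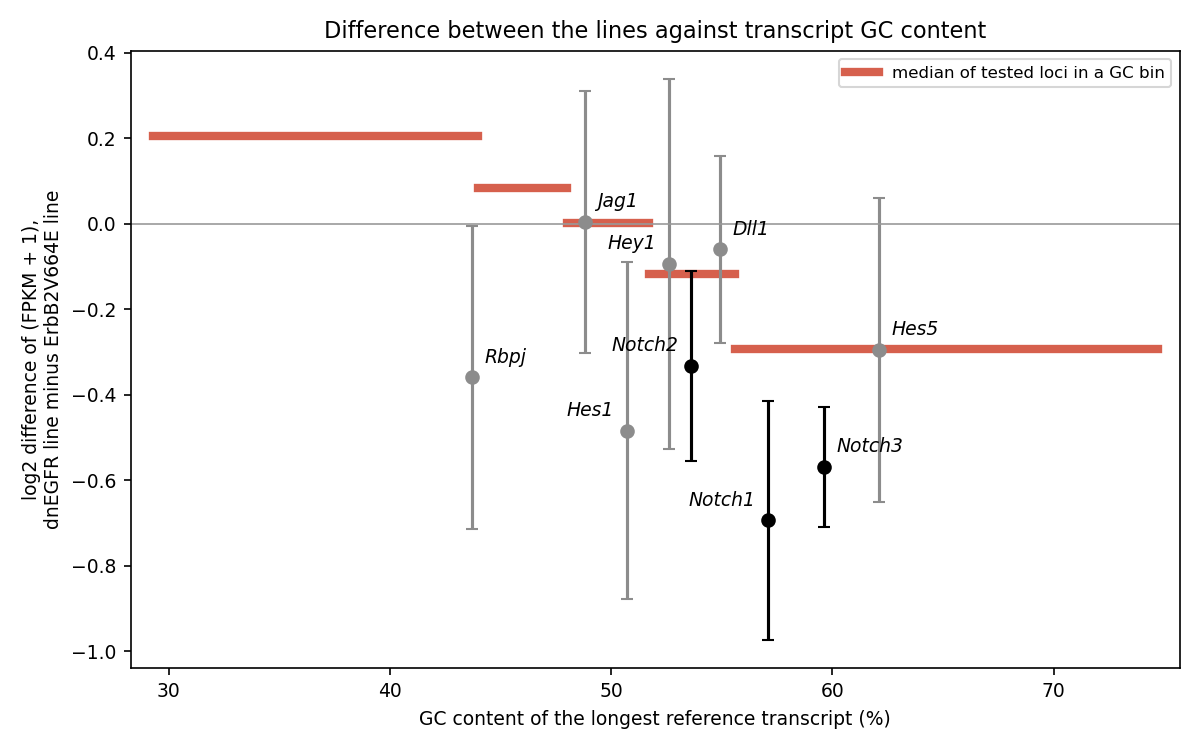
Log2 difference of FPKM + 1 between the dnEGFR line and the ErbB2V664E line (y axis) against GC content of the longest reference transcript in percent (x axis), with points and 95% confidence intervals for the 9 tested genes (black where the adjusted p was below 0.05) and red bars for the median of all tested loci in each of the 5 GC bins. The red bars step down over the bins, with medians of 0.21 in the lowest and -0.29 in the highest. Notch1, Notch2, Notch3, Hes1 and Rbpj lie below the bar of their bin, while Hes5 (-0.30) and Jag1 (0.00) lie level with theirs.

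Markers of mural cells, in which Notch3 is known to act, overlapped between the lines. The 7 mural cell markers summed to 50.7 to 63.9 FPKM in the dnEGFR line and 40.2 to 69.3 FPKM in the ErbB2V664E line, with a median difference of -0.07 and 1 of 7 called lower. Of 6 endothelial markers, 3 were called lower and 1 higher in the dnEGFR line, with a median of -0.31, and their sums were 24.1 to 44.8 FPKM in the dnEGFR line and 28.8 to 41.8 FPKM in the ErbB2V664E line. These sums include 4 libraries in which Cldn5 was listed at 0. Astrocyte markers had a median of -0.21, with 2 of 5 called lower. Markers of neuroblasts and subventricular progenitors had a median of -0.01, with 3 of 7 called lower. Sox11, one of these 7, was listed at 0 in 7 libraries and at 3.01 to 4.33 FPKM in the others. Over all loci 36.4% were called between the lines, 17.3% higher and 19.1% lower in the dnEGFR line. Ependymal markers had a median of 0.64, with 3 of 4 called higher and 1 lower. Red blood cell markers stood at 0.785, with 2 of 5 higher. For precursors the median was -0.03 (1 of 5 higher, 1 lower), and for newly formed oligodendrocytes 0.18 (1 of 4 higher, 1 lower). Neurons stood at -0.30 and striatal neurons at -0.32, each with 1 of 5 called lower. Mature oligodendrocytes (0.12), microglia (0.20) and choroid plexus (0.06) had 0 called. The part of the cell types named here in the receptor levels was not tested.

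Across the 12 libraries, Notch1 and Notch3 varied together with a Pearson r of 0.88 on the log2 scale, which was 0.40 after the group means were removed. For Notch2 and Notch3 the r of 0.73 was 0.03 after that step. Further pairs fell as well, with Notch1 and Notch2 at 0.66 before and 0.16 after that step. Notch3 and Hes1 went from 0.61 to -0.02, and Notch1 and Rbpj from 0.545 to 0.069. Some pairs did not drop, with Notch1 and Jag1 at 0.27 before and 0.62 after that step. Notch3 and Jag1 stood at 0.13 and 0.55, and Notch3 and Rbpj at 0.68 and 0.67. The 12 points fall into 2 lines of different age, and the values of a library share its depth. The 2 genes with the pattern most like that of Notch1 among 12218 loci with a single symbol were Adgrl1 (r = 0.97) and Npc1 (0.95), those for Notch2 were Serac1 (0.92) and Kank2 (0.91), and those for Notch3 were Gm12473 (0.98) and Gpr6 (0.97). For the ligands they were Lrtm2 (0.90) and Plppr3 (0.89) with Jag1, and Mlec (0.86) and Mmp15 (0.83) with Dll1. For the target genes they were Tmem158 (0.95) and Cox6a2 (0.95) with Hes1, Tmem65 (0.90) and Khsrp (0.87) with Hes5, and Pafah1b2 (0.97) and Pigk (0.95) with Hey1. Fam171b (0.92) and Npas3 (0.91) were nearest to Rbpj. All are over 12 libraries, the highest of 12218 values each, and no member was among the nearest to another. By rank order (Spearman rho) both genes nearest to Hey1 stood at 0.657, Khsrp with Hes5 at 0.636 and Fam171b with Rbpj at 0.622. The other pairs had a rho of 0.755 to 0.979. Hey1 itself was at 3.36 FPKM in dnEGFR control 3 and at 7.69 to 10.5 FPKM in the other libraries.

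The rest of the pathway was read from 65 further genes in 6 lists by role, of which 57 were tested at 56 loci. Aph1b and Aph1c, subunits of the protease that frees the intracellular part of the receptor, shared a locus and are counted once. Of the 56 loci, 0 were called in the dnEGFR mutants, the ErbB2V664E mutants and the difference of effects. At an unadjusted p under 0.05 there were 3 in the dnEGFR mutants, where 5.69% of all loci were, 8 in the ErbB2V664E mutants (12.1% of all loci) and 6 for the difference (9.01%), each near the share of the table. Dll4, Dlk1, Mfng, Dtx3l, Rbpjl, Hes3 and Hes7 lay below the filter, and Hes2 had no locus by that symbol.

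In the dnEGFR mutants the largest differences among these genes stayed above the threshold. Lfng, a sugar transferase that alters which ligands a receptor answers to, was at 3.38, 3.60 and 3.07 FPKM in the dnEGFR mutants, against 2.81, 1.77 and 2.11 FPKM in the dnEGFR controls, a log2 change of 0.44 (0.01 to 0.88, limma adjusted p = 0.872). Ctbp1, a co-repressor that acts with RBPJ, was at 13.1, 14.1 and 10.1 FPKM in the dnEGFR mutants, against 9.63, 8.55 and 9.61 FPKM in the dnEGFR controls (0.38, 0.09 to 0.66, limma adjusted p = 0.74). For both genes every mutant lay above every control, where 10.1% of all tested loci did not overlap. Bhlhe41, a repressor related to the Hes proteins, had a log2 change of 0.57 (-0.13 to 1.28), the ubiquitin ligase gene Dtx4 one of -0.50 (-1.22 to 0.22), and Fabp7, a fatty acid binding protein of radial glia and astrocytes, one of 0.48 (-0.43 to 1.38).

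In the ErbB2V664E mutants, Adam17, which encodes a metalloprotease able to cleave Notch receptors, was at 2.24, 2.87 and 1.53 FPKM, against 3.98, 4.04 and 4.30 FPKM in the ErbB2V664E controls. Every mutant lay below every control, in a line in which 18.2% of all tested loci did not overlap. The log2 change of -0.69 (-1.06 to -0.31) did not pass over all loci (limma unadjusted p = 0.00216, adjusted p = 0.143). The difference from the dnEGFR effect was -0.88 (-1.41 to -0.35, adjusted p = 0.352). A second Adam17 locus, at 0.25 to 1.18 FPKM, was not used.

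The next in size were Cir1, a co-repressor that binds RBPJ (0.56, -0.29 to 1.40), Neurl1b, a ubiquitin ligase for ligands (-0.55, -1.0 to -0.09), and Dner, a neuronal transmembrane protein with Notch-like repeats (0.42, 0.07 to 0.76). Bhlhe40, a repressor close to Bhlhe41, had a log2 change of 0.39 (-1.14 to 1.91). Their adjusted p-values lay between 0.31 and 0.874.

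Nrarp, a target gene that dampens Notch signalling, had the largest fitted values in both lines but was listed at 0 in 5 of the 12 libraries. It was at 6.92, 0 and 6.28 FPKM in the dnEGFR mutants, against 0, 6.36 and 0 FPKM in the dnEGFR controls. The ErbB2V664E mutants had 0, 5.11 and 0 FPKM, against 6.55, 6.37 and 6.55 FPKM in the ErbB2V664E controls. The zeros stood beside values of 5.11 to 6.92 FPKM in the other libraries, so no fold is given.

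Between the lines, 28 of the 56 loci were called, 7 higher and 21 lower in the dnEGFR line, with a median log2 difference of -0.17. Over all loci 36.4% were called, 17.3% higher and 19.1% lower, with a median of -0.02, and the calls carry the same limits as those of the receptors. In the nuclear complex 8 were lower and 1 higher of 17, led by the co-repressor gene Spen (-0.87, adjusted p = 1.4e-05). The others lower were the co-repressor genes Tle3 (-0.65), Ncor1 (-0.38) and Tle1 (-0.37), the acetyltransferase genes Ep300 (-0.36) and Kat2a (-0.35), and the co-activator genes Maml1 (-0.34) and Maml3 (-0.34), while the deacetylase gene Hdac2 was higher (0.31). Genes lower in the dnEGFR line here thus encode both co-repressors and co-activators.

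In the endocytosis and ubiquitin list, 6 were lower and 3 higher of 13, in a comparison that called 19.1% of all loci lower and 17.3% higher. Those lower were Neurl1a (-0.95), Dtx1 (-0.63), Dtx2 (-0.32), Fbxw7 (-0.32) and the joined loci of Numbl (-0.71) and Mib2 (-0.50). Mib1, a ubiquitin ligase that ligands need for activity, was higher by 1.05 (adjusted p = 0.00122), as were Dtx3 (0.40) and Itch (0.37). Of 9 receptor cleavage loci, Furin, which cuts the receptor precursor, was lower (-0.73) and Psenen, a subunit of the intramembrane protease, was higher (0.60).

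Among 6 further receptor and ligand genes, Notch4 (-0.54) and Jag2 (-0.53) were lower and the contactin gene Cntn6 (0.33) was higher in the dnEGFR line. Beside these and the next 2 lists stand 19.1% of all loci called lower and 17.3% called higher. Of 4 sugar transferase genes, Lfng (-1.08) and Rfng (-0.26) were lower. Of 7 genes of the target and HES list, Heyl (-0.24) and Bhlhe40 (-1.44, adjusted p = 0.0408) were lower and Fabp7 was higher by 1.58 (adjusted p = 0.00203). In the dnEGFR line Bhlhe40 was at 1.63 FPKM in its lowest mutant and at 1.56 FPKM in its lowest control, a pair of littermates. The other mice of that line had 10.2 to 12.8 FPKM. How far the call rests on that pair was not tested.

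**Figure D4:**
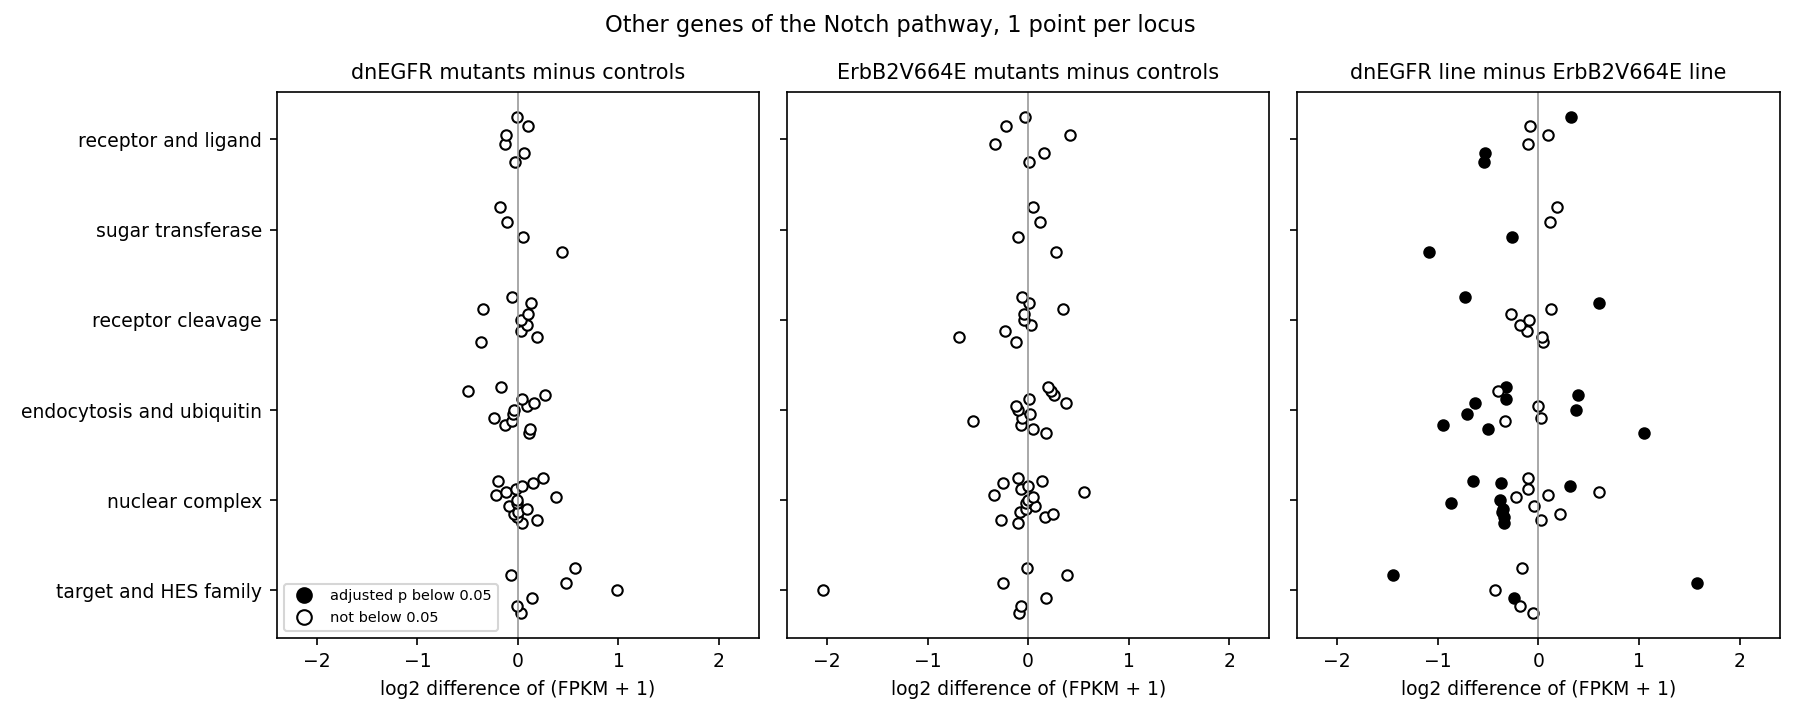
Log2 differences of FPKM + 1 (x axis) of the 56 other Notch pathway loci by role (y axis), 1 point per locus, for dnEGFR mutants minus controls, ErbB2V664E mutants minus controls, and the dnEGFR line minus the ErbB2V664E line. No point of the first 2 panels is filled (adjusted p below 0.05), against 28 in the third, and the outlying points at 0.99 and -2.03 in the first 2 panels are Nrarp, which was listed at 0 in 5 libraries.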

How the data were processed

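Per the labels' protocols, polyadenylated RNA was fragmented, copied with random hexamers and sequenced in paired ends. No step that keeps the strand is named, so reads of genes that overlap in antisense cannot be told apart. The deposited values are FPKM per locus. The authors obtained them with StringTie according to the design text, and HISAT is named beside it in the submitters' processing notes. For versions, genome build and annotation, the sources used here name none. The number of fragments per library was estimated from the smallest steps of the values in 14221 loci with 1 reference transcript (tolerance 0.01 of a fragment), with totals of 117363 to 134410 FPKM per library. The share of low values on the fragment steps was too small (34.1% to 37.9%) for counts to be recovered. Replicates of a group correlated at r = 0.910 to 0.926, and no columns were identical.

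Two-sided limma tests (limma 3.58.1, R 4.3.3) were run on log2(FPKM + 1). The model had 1 mean per group and all 12 libraries, with a trended empirical Bayes prior (2.03 prior and 8 residual degrees of freedom). Loci needed 1 FPKM in at least 3 libraries. A fold change on this scale understates changes of low genes, and intervals are 95% confidence intervals. The procedure was tested on simulated data. The labels name each mutant's littermate control, so the 6 litters pair the libraries. Within litters the deviations from the group means correlated at 0.02, 0.01, 0.03, 0, 0.01 and -0.03. P-values reflect the spread between mice. Python 3.11.15 with scipy 1.17.1, numpy 2.4.6, pandas 2.3.3 and matplotlib 3.10.9 served for the rest.

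The members, the 6 pathway lists, the 13 marker lists and the alternatives were chosen with earlier results of these data known. A gene of 1 pathway list and a gene of 1 marker list are not reported here and were left out of the sums, counts and medians of their lists, but remained among the loci tested. All members were named, with each other pathway gene called in a comparison, the 6 largest changes in each line and the 2 genes nearest in pattern to each tested member. The comparison of the lines and its repeat in controls alone were added after the values had been seen. The alternatives were pseudocounts of 0.1 and 0.5, no filter, a filter of 5 FPKM, quantile and median scaling, litter as a block, each line alone, robust empirical Bayes, the sum over all loci of a symbol, and leaving out each library.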

Additional observations from a re-analysis of the deposited data

How the results depend on the processing

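In the dnEGFR line, the ErbB2V664E line and the difference of their effects, 0 members and 0 other pathway genes were called under every alternative run. The lowest adjusted p of a member over the alternatives was 0.799 in the dnEGFR line, 0.256 in the ErbB2V664E line and 0.36 for the difference. With litter as a replicate block, which rests on the pairing in the labels, the loci called numbered 3 in the dnEGFR line (13 without the block), 7 in the ErbB2V664E line (38) and 4 for the difference (16), and no call of a member changed. The block cannot be fitted for the comparison of the lines, since each litter belongs to 1 line. With each line fitted alone, 22 and 23 loci were called in the dnEGFR and ErbB2V664E lines. A filter of 5 FPKM left 6202 loci to test. Of these, 7 were called in the ErbB2V664E line, 7 for the difference and 2761 between the lines. Without that filter 5020 of 13803 were called between the lines, so the 2 counts are of different totals. At 5 FPKM 0 members were called between the lines because Hey1 alone was tested. In controls alone 2761 of 13803 loci were called between the lines.

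Leaving out 1 library gave 9 to 34 loci in the dnEGFR line, with the most without mutant 3. It gave 12 to 235 in the ErbB2V664E line, with the fewest without mutant 2 and the most without mutant 1, and 12 to 35 for the difference. Between the lines it gave 4361 to 4783 loci and 2 to 4 members. No value that turned direction was called, before or after, and the largest of them before turning was the 0.22 of Hes1 in the ErbB2V664E line. Over the libraries left out, the dnEGFR changes ranged over -0.296 to 0.0619 for Notch1, -0.0126 to 0.105 for Notch3, -0.0927 to 0.267 for Jag1, -0.0112 to 0.313 for Hes1 and -0.0963 to 0.112 for Hes5. The ErbB2V664E changes ranged over -0.0783 to 0.142 for Notch1, -0.139 to 0.107 for Jag1, -0.0177 to 0.167 for Dll1, -0.0823 to 0.374 for Hes1 and -0.156 to 0.253 for Hes5. The difference of effects ranged over -0.0628 to 0.295 for Notch1, -0.256 to 0.104 for Jag1, -0.131 to 0.0712 for Dll1, -0.242 to 0.232 for Hes1, -0.181 to 0.229 for Hes5 and -0.175 to 0.251 for Rbpj. The line difference ranged over -0.0705 to 0.111 for Jag1 and -0.214 to 0.112 for Hey1. Without turning, the dnEGFR changes ranged over 0.0371 to 0.198 for Notch2, 0.00248 to 0.191 for Dll1, 0.0182 to 0.671 for Hey1 and -0.454 to -0.0287 for Rbpj, and the ErbB2V664E changes over -0.32 to -0.0331 for Notch2, -0.105 to -0.00367 for Notch3, -0.167 to -0.0902 for Hey1 and -0.281 to -0.0877 for Rbpj. Quantile scaling turned Notch1 in the ErbB2V664E line to 0.00733 and the Rbpj difference of effects to 0.00445, and a pseudocount of 0.1 turned that of Rbpj to 0.0259. Summing the 3 Notch3 loci, 1 of which was listed at 0 in ErbB2V664E controls 1 and 3, gave 0.174 in the ErbB2V664E line. The same sum gave 0.082 for the difference of effects. Controls alone gave -0.0165 for Jag1 between the lines. No scaling moved the median of all loci by more than 0.0386. The causes of these shifts were not tested. At 3 mice per group the members' intervals for mutants against controls reach 0.14 to 1.04 on the log2 scale at their upper ends. Their lower ends reach -0.15 to -0.74, so changes in either direction within these intervals are not excluded.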

Other observations

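In the dnEGFR line Bhlhe40, a repressor of the Hes-related family, was at 1.63 FPKM in mutant 2 and at 1.56 FPKM in control 2, its littermate. The other 2 mutants had 11.4 and 10.2 FPKM and the other 2 controls 12.8 and 10.8 FPKM. The ErbB2V664E line had 18.9, 19.0 and 28.4 FPKM in mutants and 14.0, 18.5 and 16.9 FPKM in controls. The gene was singled out after its values had been seen, and whether the low values belong to the litter was not tested.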
